A study of Mus musculus with 9 samples.

Results

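The genes described here are 7 secreted signalling proteins: the 3 colony-stimulating factors Csf1, Csf2 and Csf3, and 4 cytokines of the interleukin-6 family, Il6, Lif, Il11 and Clcf1. They were taken by gene symbol from a table of 52208 genes, and all 7 were found. Messenger RNA was sequenced from 66cl4, a mouse mammary carcinoma line labelled as triple negative, in 3 groups of 3 biological replicates. The IKK2-SE cells carried a short hairpin RNA against Eya3, a transcriptional coactivator and phosphatase, and also IKK2-SE, an always-active mutant of IKK2, the IkB kinase upstream of NF-kB. The knockdown cells carried the Eya3 hairpin with an empty vector, and the scramble cells a non-targeting hairpin with the same empty vector. All 9 cultures were kept in puromycin at 2.5 µg/ml after hairpin transduction and were selected on the mCherry of the vector, and IKK2-SE was not combined with the scramble hairpin. The sample titles call the hairpin KD2 and the count table calls it KD3. Each arm rests on a single hairpin, and neither separate transductions nor clonal or pooled selection is stated, so that all p-values reflect culture-to-culture spread, which may be technical.

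Colony-stimulating factors drive the growth and maturation of myeloid cells. Csf1 encodes M-CSF, which maintains macrophages, Csf2 encodes GM-CSF, and Csf3 encodes G-CSF, which mobilises neutrophils. The interleukin-6 family signals through the shared receptor chain gp130, encoded by Il6st, to JAK kinases and STAT3. The partner chains that help to recognise a ligand differ among the ligands, and some are shared. Tumour cells, fibroblasts and macrophages release these proteins under inflammatory signals, and several of the genes are textbook targets of NF-kB, AP-1 and C/EBP factors.

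Library totals ran from 63601403 to 81534534 counts, and 16766 genes had enough reads to be tested. Eya3, the targeted gene, was at 26.6 ± 2.21 CPM (the reads of a gene scaled to a common library size by TMM) in IKK2-SE cells, 25.0 ± 0.60 CPM in knockdown cells and 62.6 ± 1.63 CPM in scramble cells (SD, n = 3 each). Ikbkb, the mouse gene for IKK2, was at 48.6 ± 1.27, 44.3 ± 0.43 and 47.8 ± 2.56 CPM in those groups and passed no pairwise test (edgeR adjusted p = 0.0809 for IKK2-SE against knockdown and 0.0532 for knockdown against scramble cells), while the F-test over the 3 groups gave an adjusted p of 0.0412. With library totals in place of TMM both pairwise differences passed (0.0362 and 0.00855), and whether reads of the delivered copy count under this symbol was not tested. Among epithelial markers Krt8 averaged 1072 CPM in IKK2-SE, 1329 CPM in knockdown and 628 CPM in scramble cells. Krt14 was highest in scramble cells, at 0.120, 0.305 and 1.24 CPM in the same order of groups. Epcam, Cdh1 and Krt18 were each below 0.2 CPM in the mean of every group. Of 10 epithelial and tumour markers 7 were tested, and 5 rose and 1 fell in knockdown against scramble cells, 2 rose and 1 fell in IKK2-SE against knockdown cells, and 4 rose and 1 fell in IKK2-SE against scramble cells. Krt5, counted as higher in knockdown against scramble cells, would not have passed the filter without its knockdown reads. Pgr had no counts. Esr1 was present at 20.05, 16.4 and 11.8 CPM in IKK2-SE, knockdown and scramble cells, and estrogen receptor protein was not measured. The haematopoietic marker Ptprc had 12, 7 and 5 counts in all libraries of those groups, and Tyrobp, another such marker, had none. The 9 myeloid and lymphocyte markers summed to 20.9 to 23.2 CPM in IKK2-SE libraries, 15.1 to 18.0 CPM in knockdown libraries and 16.1 to 18.7 CPM in scramble libraries, mostly Lyz2 reads. Of these 9 markers 2 were tested, and Lyz2 rose in IKK2-SE cells against each other group. The other, the neutrophil gene S100a8, was at 1.42 ± 0.29 CPM in IKK2-SE, 0.111 ± 0.02 CPM in knockdown and 0.123 ± 0.08 CPM in scramble cells. S100a8 would not have passed the filter without its IKK2-SE reads, so its values are a description. The 5 endothelial markers summed to 1.33 to 1.60, 0.425 to 0.688 and 4.79 to 5.63 CPM, and the 6 fibroblast markers, mostly Pdgfra reads, to 54.4 to 57.9, 46.4 to 51.6 and 51.7 to 54.2 CPM in the same order of groups. Single markers moved more than these sums. Cdh5 was at 0.634, 0.226 and 4.36 CPM, Tie1 at 0.508, 0.0775 and 0.512 CPM, Pdgfrb at 10.7, 7.08 and 1.24 CPM, Dcn at 0.712, 0.0647 and 0 CPM, and Col1a1 at 1.52, 2.59 and 3.96 CPM in IKK2-SE, knockdown and scramble cells. Of 4 endothelial markers tested, 1 rose and 2 fell in knockdown against scramble cells, 2 rose and none fell in IKK2-SE against knockdown cells, and 1 rose and 1 fell in IKK2-SE against scramble cells. The 4 fibroblast markers tested gave 2 higher and 2 lower, 2 higher and 1 lower, and 2 higher and 2 lower in those comparisons. Dcn, counted as higher in each of them, reached the test only through its IKK2-SE reads. The endothelial marker counted as higher against scramble cells was Emcn, at 0.225, 0.162 and 0 CPM in IKK2-SE, knockdown and scramble cells. Having no scramble reads, Emcn reached the test only through the other groups. Of 10 genes that track RNA quality, 2 fell and 2 rose in knockdown against scramble cells, 2 fell and none rose in IKK2-SE against knockdown cells, and 3 fell and 1 rose in IKK2-SE against scramble cells. Over all tested genes 57.5%, 10.4% and 55.8% changed in these comparisons, in the same order. The part of these markers in the results was not tested.

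RefSeq promoters were at hand for 5 of the 7 genes (GRCm38.p6), and those of Il6, Csf1, Lif and Il11 are shown because their letters can be read beside the changes described further on. Each runs 5′ to 3′ over the 250 bases before the annotated start, on the gene's strand, and the capitals mark matches to 3 motifs. These are the NF-kB consensus, AP-1 (TGANTCA) and C/EBP (TTNNGNAA), each searched on both strands, and no match overlapped another. Il6 lies at chr5:30012864-30013113 on the plus strand, Csf1 at chr3:107760470-107760719 on the minus strand, Lif at chr11:4257318-4257567 on the plus strand, and the downstream of the 2 annotated Il11 starts at chr7:4778142-4778391 on the minus strand.
Il6: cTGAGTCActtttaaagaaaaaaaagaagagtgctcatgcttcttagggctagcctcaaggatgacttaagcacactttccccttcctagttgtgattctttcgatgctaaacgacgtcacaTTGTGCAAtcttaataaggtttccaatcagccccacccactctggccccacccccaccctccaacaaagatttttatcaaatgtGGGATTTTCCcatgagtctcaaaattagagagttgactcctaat
Csf1: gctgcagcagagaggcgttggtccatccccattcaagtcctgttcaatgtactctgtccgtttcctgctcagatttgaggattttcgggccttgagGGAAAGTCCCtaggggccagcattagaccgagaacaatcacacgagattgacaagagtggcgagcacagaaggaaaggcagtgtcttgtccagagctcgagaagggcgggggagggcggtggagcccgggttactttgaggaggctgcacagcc
Lif: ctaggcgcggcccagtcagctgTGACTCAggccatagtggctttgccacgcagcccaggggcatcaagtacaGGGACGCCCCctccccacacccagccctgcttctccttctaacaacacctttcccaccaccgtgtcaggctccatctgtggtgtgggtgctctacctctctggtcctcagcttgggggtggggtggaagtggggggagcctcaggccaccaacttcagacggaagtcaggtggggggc
Il11: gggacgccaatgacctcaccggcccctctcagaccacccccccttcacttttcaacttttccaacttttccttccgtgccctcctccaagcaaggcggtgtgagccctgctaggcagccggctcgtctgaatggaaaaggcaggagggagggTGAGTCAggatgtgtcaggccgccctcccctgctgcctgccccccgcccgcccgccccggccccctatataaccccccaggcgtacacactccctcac
In Il6 the capitals are, in order, an AP-1, a C/EBP and an NF-kB match, GGGATTTTCC, which begins 44 bases before the start. In Csf1 they are an NF-kB match that reads GGGACTTTCC on the opposite strand and begins 154 bases before the start. In Lif an AP-1 match is followed by an NF-kB match, GGGACGCCCC, and in Il11 an AP-1 match stands 98 bases before the start, while the window of the upstream Il11 start held no match. The Csf2 window held a C/EBP match alone, but its RefSeq start lies 232 bases upstream of the GENCODE start, so the sequence before the GENCODE start was not searched. NF-kB matches were thus in the windows of 3 of 5 members, against 7.25% of 32851 promoters of the same length. The members were counted by gene, with 2 windows for Il11, and the 32851 by promoter, so the units differ. A match is a description of the letters, not a site shown to be bound. AP-1 matches were in 6.75% of those promoters and C/EBP matches in 36.8%. The sequence TATAAA, searched on the gene's strand, was in 7.59% of all promoters and in none of these windows, which says only that those letters are not in them.

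The 7 genes spanned a wide range of abundance. Per kilobase of exon, Csf1 stood at 116, 75.7 and 75.3 CPM per kb in IKK2-SE, knockdown and scramble cells, and Lif followed at 10.3, 6.06 and 8.50 CPM per kb. Csf1 alone made up 87.8% ± 0.41, 90% ± 0.49 and 84.9% ± 0.67 of the summed length-scaled level of the 7 genes in those groups (SD, n = 3 each). Clcf1, Csf3 and Il11 lay between 0.0356 and 3.04 CPM per kb, and Csf2 and Il6 were the scarcest of the set in scramble cells, at 0.0461 and 0.00564 CPM per kb. The summed level of the 7 genes was 132 ± 0.62 CPM per kb in IKK2-SE cells, 84.1 ± 3.04 CPM per kb in knockdown cells and 88.7 ± 2.27 CPM per kb in scramble cells. Of the 7, 6 passed the filter on low counts. Il6 did not, and Csf2 passed only through its reads in IKK2-SE cells, so that its presence among the tested genes already required a difference.

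**Figure D1:**
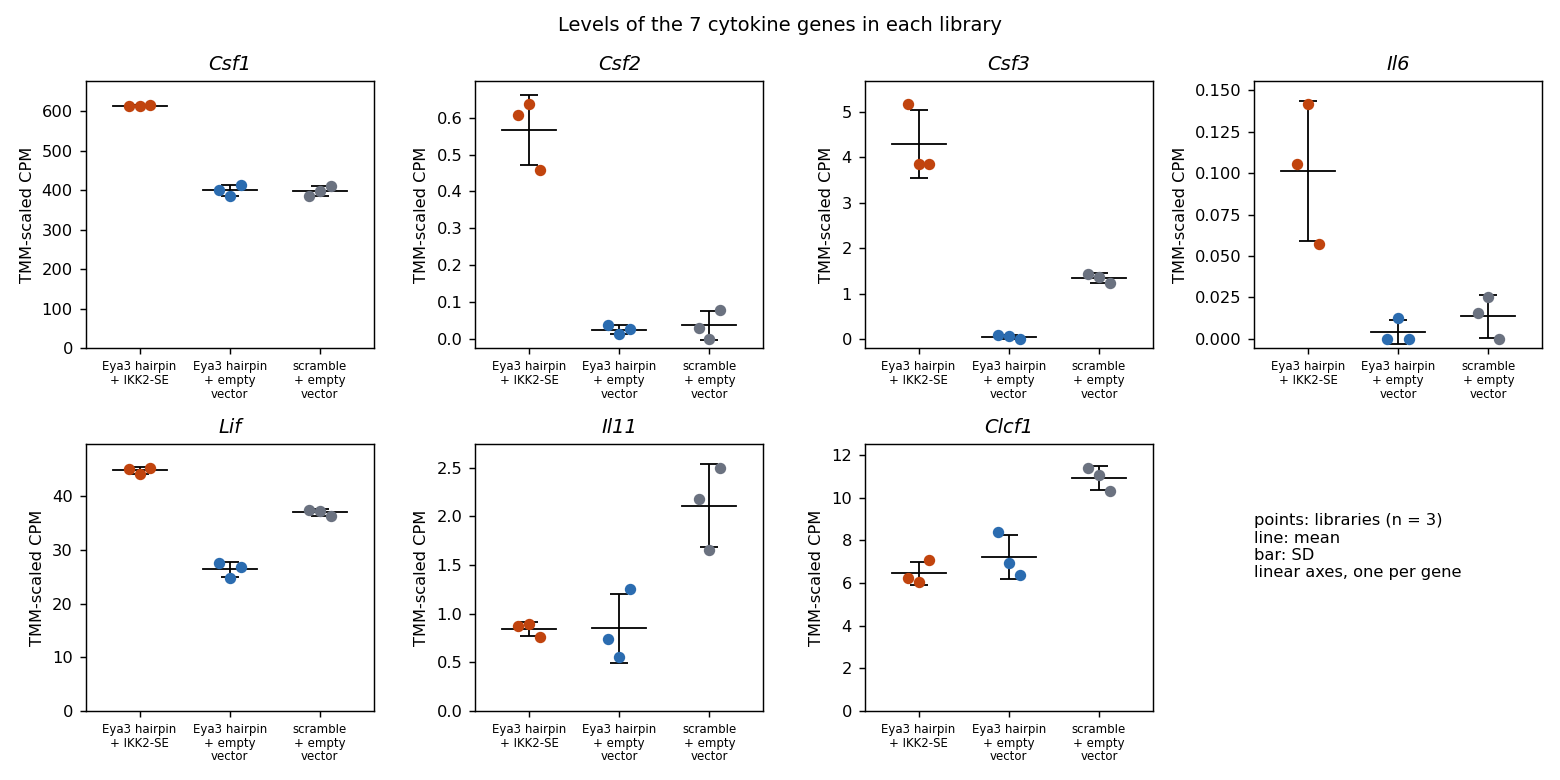
Level of each cytokine gene in every library (TMM-scaled CPM, linear axis per gene, points are libraries, lines are means and bars SD, n = 3). Csf3 and Lif are lowest in knockdown cells and highest in IKK2-SE cells, and Il11 and Clcf1 are highest in scramble cells. Csf1, Csf2 and Il6 are highest in IKK2-SE cells. Csf2 and Il6 lie near the floor in the other groups, whereas Csf1 averages 399.7 CPM in knockdown and 397.5 CPM in scramble cells.

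Csf3 showed the widest range of the set across the groups. Csf3 (chromosome 11, 98701263 to 98703629, plus strand, GRCm38/mm10) had 391, 273 and 270 reads in IKK2-SE libraries, 7, 5 and 0 reads in knockdown libraries and 92, 107 and 92 reads in scramble libraries. Its levels were 5.16, 3.86 and 3.86 CPM in IKK2-SE cells, 0.0874, 0.0637 and 0 CPM in knockdown cells and 1.42, 1.37 and 1.22 CPM in scramble cells. No library of any group overlapped those of another, and the count of 0 allows up to 0.0399 CPM in that knockdown library. Csf3 fell by 4.66 ± 0.37 on the log2 scale in knockdown cells against scramble (estimate ± SE, edgeR adjusted p = 1.86e-08). It rose by 6.34 ± 0.33 in IKK2-SE cells against knockdown cells (edgeR adjusted p = 1.46e-09). Against scramble cells the IKK2-SE cells were 3.21-fold higher, a log2 change of 1.68 ± 0.20 (edgeR adjusted p = 2.43e-06). The ratio of pooled, depth-scaled reads was 0.0385 for knockdown over scramble cells (95% exact interval 0.0196 to 0.0682) and 84 for IKK2-SE over knockdown cells (47.9 to 163), intervals that cover counting error only. The size of both changes varied with the setting. Over the 17 alternatives they ran from -5.29 to -4.11 and from 5.8 to 6.98, and they were largest without knockdown replicate 1.

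Lif followed the same order of groups with smaller steps. Lif (chromosome 11, 4257557 to 4272514, plus strand), leukaemia inhibitory factor, which keeps mouse embryonic stem cells undifferentiated, was at 45.1, 44.1 and 45.3 CPM in IKK2-SE cells, 27.5, 24.7 and 26.8 CPM in knockdown cells and 37.4, 37.3 and 36.3 CPM in scramble cells. The 3 groups did not overlap. Lif fell by 0.49 ± 0.05 in knockdown cells against scramble (edgeR adjusted p = 2.43e-07) and rose by 0.77 ± 0.05 in IKK2-SE cells against knockdown cells (edgeR adjusted p = 1.74e-08). In IKK2-SE cells it was 1.21-fold above scramble cells, a log2 change of 0.28 ± 0.05 (edgeR adjusted p = 0.000109). Fewer cells making a transcript and less transcript per cell cannot be told apart in these bulk libraries.

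Csf1 was higher in IKK2-SE cells than in both other groups, and between knockdown and scramble cells it passed no test. Csf1 (chromosome 3, 107741048 to 107760469, minus strand) was at 613, 613 and 614 CPM in IKK2-SE cells, 401, 385 and 413 CPM in knockdown cells and 384, 398 and 410 CPM in scramble cells. The IKK2-SE libraries lay above all the others, and the knockdown and scramble libraries overlapped. Csf1 rose by 0.62 ± 0.04 in IKK2-SE cells against knockdown cells, a 1.53-fold difference (edgeR adjusted p = 1.06e-08), and by 0.63 ± 0.04 against scramble cells (edgeR adjusted p = 5.24e-10). Between knockdown and scramble cells it differed by 0.01 ± 0.04 (edgeR adjusted p = 0.876). The 40 tested genes nearest to Csf1 had a median change of 0.33 in knockdown against scramble cells and of 0.44 in IKK2-SE against scramble cells. The median of those neighbours was 0.02 in IKK2-SE against knockdown cells.

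Csf2 had a similar order of groups at a far lower level. Csf2 (chromosome 11, 54247271 to 54249667, minus strand) had 46, 45 and 32 reads in IKK2-SE libraries, 3, 1 and 2 in knockdown libraries and 2, 0 and 6 in scramble libraries. The IKK2-SE libraries stood apart at 0.607, 0.636 and 0.457 CPM, and knockdown and scramble libraries overlapped below 0.08 CPM. The ratio of pooled, depth-scaled reads was 22.1 for IKK2-SE over knockdown cells (95% exact interval 9.88 to 61.5) and 15.5 for IKK2-SE over scramble cells (7.61 to 36.7), covering counting error only. Since Csf2 passed the filter only through the group where it was high, these values are a description and no p is given. The fitted log2 differences were 4.38 ± 0.62 from knockdown and 3.89 ± 0.59 from scramble cells, and few reads set them: the difference from scramble was 5.17 without scramble replicate 3 and 3.29 without scramble replicate 2. The difference between knockdown and scramble cells was -0.49 ± 0.90, with 6 against 8 reads in all and a pooled ratio of 0.7 (95% exact interval 0.2 to 2.3, counting error only). A gene annotated on the opposite strand over most of Csf2 had no reads in the table.

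Il6 (chromosome 5, 30013114 to 30019981, plus strand), the inflammatory cytokine after which the family is named, was close to the limit of detection. It had 8, 10 and 4 reads in IKK2-SE libraries, 0, 1 and 0 in knockdown libraries and 1, 2 and 0 in scramble libraries. Every IKK2-SE library had more reads than any other library. The pooled, depth-scaled ratio was 23.7 for IKK2-SE over knockdown cells (95% exact interval 3.84 to 980) and 7.38 for IKK2-SE over scramble cells (2.22 to 38.5), covering counting error only. With no filter on low counts, edgeR's adjusted p was 0.0556 for IKK2-SE against knockdown cells, 0.0861 for IKK2-SE against scramble cells and 0.571 for knockdown against scramble cells, and 0.0154 for a difference among the 3 groups.

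Il11 and Clcf1 were lower in both arms with the Eya3 hairpin. Il11 (chromosome 7, 4772373 to 4782859, minus strand), a cytokine linked to bone metastasis and fibrosis, was at 0.871, 0.890 and 0.757 CPM in IKK2-SE cells, 0.737, 0.560 and 1.25 CPM in knockdown cells and 2.18, 1.65 and 2.50 CPM in scramble cells. The scramble libraries lay above all the others, and the IKK2-SE libraries lay within the range of the knockdown libraries. Il11 fell by 1.31 ± 0.25 in knockdown cells and by 1.33 ± 0.25 in IKK2-SE cells, both against scramble (edgeR adjusted p = 0.00022 and 0.000237). IKK2-SE and knockdown cells differed by -0.01 ± 0.27 (edgeR adjusted p = 0.996). Clcf1 (chromosome 19, 4214238 to 4223490, plus strand), a neurotrophic cytokine that signals through the CNTF receptor, was at 6.25, 6.05 and 7.05 CPM in IKK2-SE cells, 8.37, 6.92 and 6.35 CPM in knockdown cells and 11.4, 11.03 and 10.3 CPM in scramble cells. Here too the scramble libraries stood above the rest, while the arms with the hairpin overlapped. Clcf1 fell by 0.59 ± 0.10 in knockdown cells and by 0.76 ± 0.10 in IKK2-SE cells, both against scramble (edgeR adjusted p = 7.54e-05 and 7.53e-06), and differed by -0.16 ± 0.10 between IKK2-SE and knockdown cells (edgeR adjusted p = 0.408). A longer protein-coding locus overlaps nearly all of Clcf1 on the same strand in GENCODE, so its reads may not all be counted under this name.

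Csf2, which reached the test only through its IKK2-SE reads, and Il6 are left out of the counts that follow. Of the other 5 genes 4 (Csf3, Lif, Il11 and Clcf1) fell and none rose in knockdown against scramble cells, where 29.9% of all tested genes fell, 27.7% rose and 57.5% changed in all. Their median change was -0.59, against 0.00 over all tested genes. In IKK2-SE against knockdown cells 3 of 5 (Csf1, Csf3 and Lif) rose and none fell, where 5.61% of all tested genes rose, 4.82% fell and 10.4% changed in all, with a median of 0.62 against 0.00 over all tested genes. With library totals in place of TMM, 65.9% of all called genes in that comparison were higher, against 53.8%, and the same 3 members rose. In IKK2-SE against scramble cells Csf1, Csf3 and Lif rose and Il11 and Clcf1 fell, 5 of 5, where 27% of all tested genes rose, 28.7% fell and 55.8% changed in all. All 5 also differed among the 3 groups by edgeR's F-test, as did 60.1% of tested genes. The comparisons share libraries, so they are given side by side and are not separate evidence. Groups did not overlap in 63.6%, 24.7% and 61.1% of tested genes in the 3 comparisons. The 40 nearest tested genes had median changes in knockdown against scramble cells of -0.24 around Clcf1, -0.22 around Csf2, -0.15 around Il11, -0.08 around Lif and -0.03 around Csf3. Between IKK2-SE and knockdown cells the neighbours' medians ran from -0.01 to 0.02 for all 7. The part of these local shifts in the results was not tested.

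**Figure D2:**
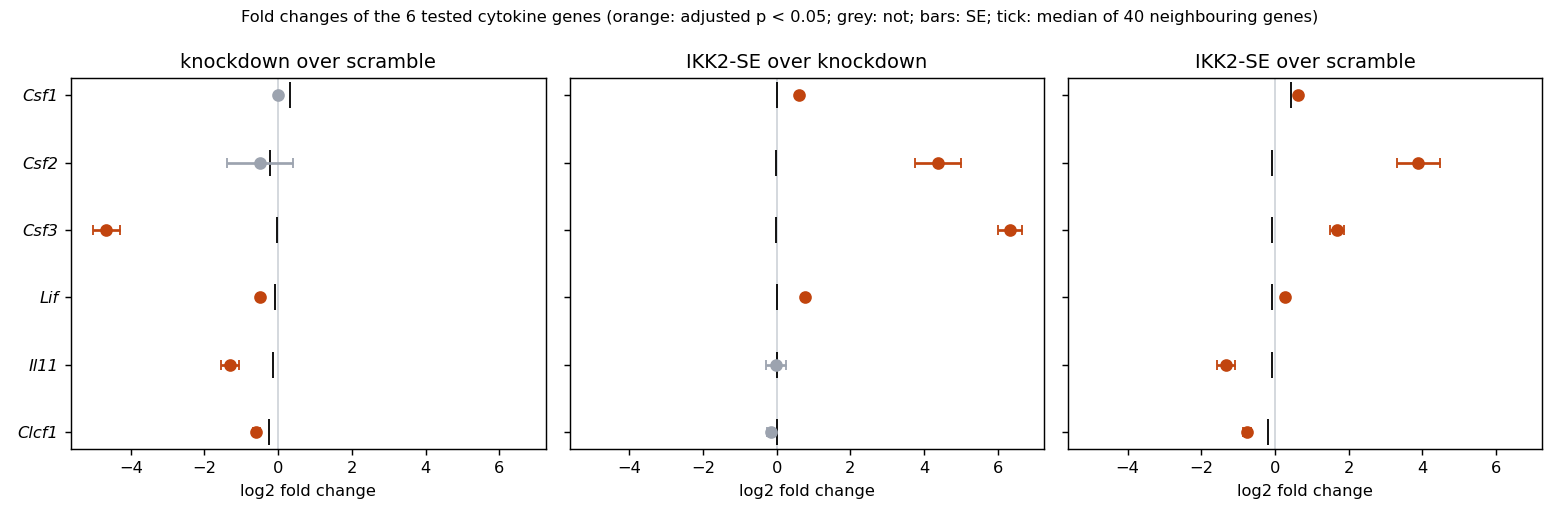
Log2 fold changes of the 6 tested cytokine genes in the 3 comparisons (points are edgeR estimates, bars SE, orange where adjusted p was below 0.05, grey otherwise), with a tick at the median change of the 40 nearest tested genes and Csf2 drawn as fitted although it reached the test only through its IKK2-SE reads. Csf3 moves farthest, at -4.66 in knockdown over scramble and 6.34 in IKK2-SE over knockdown, and Il11 and Clcf1 lie near 0 in IKK2-SE over knockdown.

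The receptors of these ligands were read in the same libraries. Of 10 receptor genes 6 were tested, and 4 fell and 1 rose in knockdown against scramble cells (median -0.45), where 57.5% of all tested genes changed. In IKK2-SE against knockdown cells 3 of 6 rose and none fell (median 0.38), where 10.4% of all tested genes changed. In IKK2-SE against scramble cells 2 rose and 3 fell, where 55.8% changed. Csf2rb, a receptor chain for GM-CSF, was counted as higher in both comparisons with scramble cells. No scramble library helped it past the filter, so those calls are a description. Il6st, the gp130 chain common to the interleukin-6 family, was the most abundant per length, at 15.6, 12.8 and 19.8 CPM per kb in IKK2-SE, knockdown and scramble cells. It fell by 0.63 ± 0.04 in knockdown cells against scramble (edgeR adjusted p = 5.52e-10) and rose by 0.29 ± 0.04 in IKK2-SE against knockdown cells (edgeR adjusted p = 0.000105), which left it 0.35 ± 0.04 lower than in scramble cells on the log2 scale. Il11ra1, the chain that binds interleukin-11, averaged 2.27 ± 0.17 CPM in IKK2-SE cells, 1.5 ± 0.09 CPM in knockdown cells and 7.35 ± 0.50 CPM in scramble cells. Its fall with knockdown was 2.29 ± 0.12 and its rise with IKK2-SE over knockdown 0.60 ± 0.12 (edgeR adjusted p = 5.27e-11 and 0.00451). Il11 and the gene for its receptor chain were thus both lower in the arms with the Eya3 hairpin, and the receptor gene rose in IKK2-SE over knockdown cells where Il11 passed no test.

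Il6ra, the chain that binds interleukin-6, was at 14.7 ± 1.40 CPM in IKK2-SE cells, 10.6 ± 1.09 CPM in knockdown cells and 12.7 ± 0.12 CPM in scramble cells. It rose by 0.48 ± 0.08 in IKK2-SE against knockdown cells (edgeR adjusted p = 0.00128) and fell by 0.26 ± 0.08 in knockdown against scramble cells (edgeR adjusted p = 0.0136), a call that was lost without knockdown replicate 3 (0.0878). Its rise over scramble cells, 0.21 ± 0.08 (edgeR adjusted p = 0.0426), was lost in 6 of 17 alternatives, library totals (0.067) and the removal of IKK2-SE replicate 1 (0.198) or 3 (0.0506) or of scramble replicate 1 (0.0831), 2 (0.0993) or 3 (0.0687). Cntfr, which pairs with gp130 and the LIF receptor to bind Clcf1, was at 0.555 ± 0.20 CPM in IKK2-SE cells, 0.487 ± 0.18 CPM in knockdown cells and 1.33 ± 0.19 CPM in scramble cells, and fell by 1.45 ± 0.29 with knockdown (edgeR adjusted p = 0.000361).

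Receptor chains of the other ligands were scarce. Lifr, the partner chain for Lif, had 3, 1 and 0 reads over all IKK2-SE, knockdown and scramble libraries. Csf1r, the receptor for M-CSF, had 31, 45 and 18 reads, and Csf3r, the receptor for G-CSF, had 2, 4 and 6. Csf2ra had none, and Csf2rb, the shared beta chain for GM-CSF, had 46, 28 and 5. Csf2rb was the receptor gene counted as higher in knockdown over scramble cells, on these few reads. It reached the test only through IKK2-SE and knockdown libraries. Csf1 and Lif thus stood at 6.06 CPM per kb or more in the mean of every group, while Csf1r and Lifr were at 0.0337 CPM per kb or less.

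**Figure D3:**
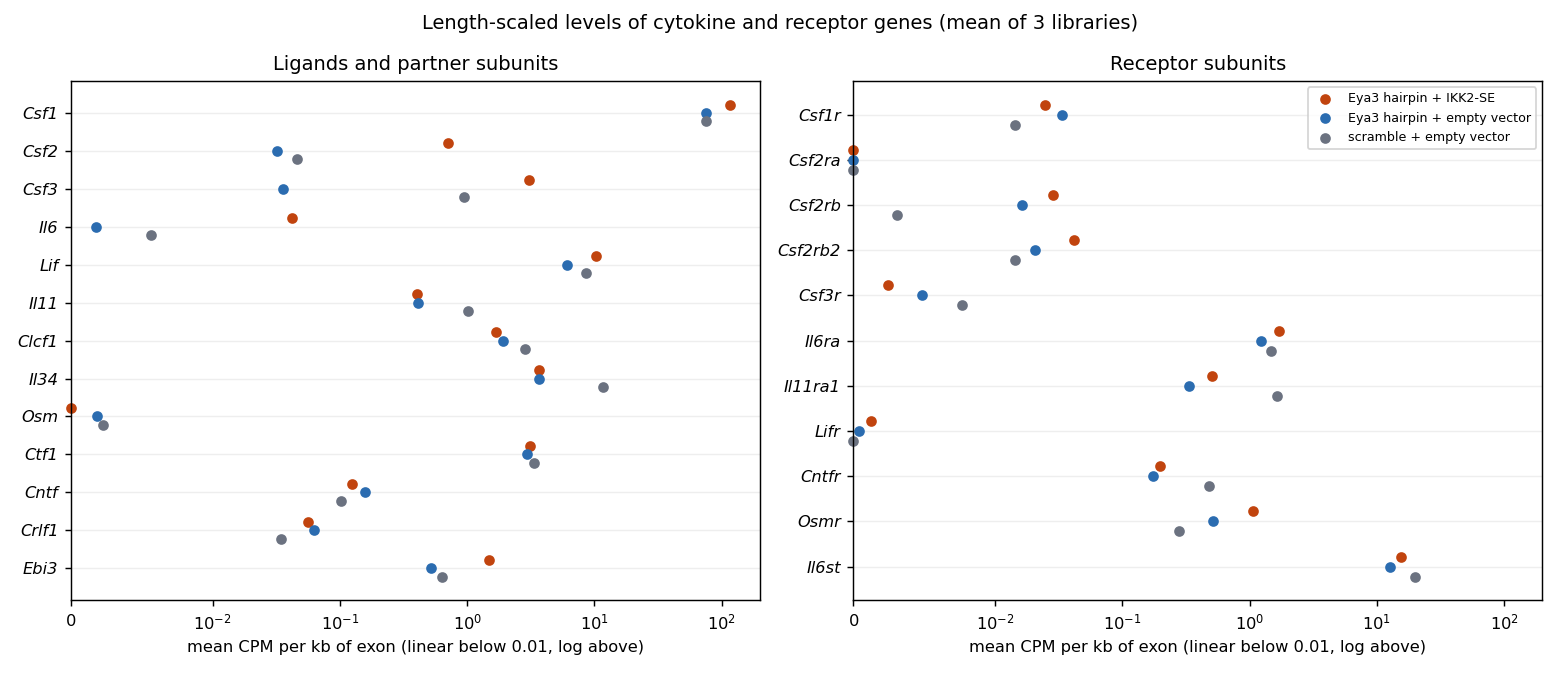
Mean length-scaled level (CPM per kb of exon, linear below 0.01 and log above, 3 libraries per group) of cytokine genes, left, and receptor chains, right. Csf1 stands highest among the ligands, at 75.3 to 116 CPM per kb, and Il6st among the receptor chains, at 12.8 to 19.8, while Csf2ra and Lifr lie at or near 0.

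Other ligands and partner chains of both families were listed for comparison, 12 genes of which 5 were tested. In knockdown against scramble cells 1 fell and 1 rose, where 57.5% of all tested genes changed. In IKK2-SE against knockdown cells 2 rose, where 10.4% of all tested genes changed. Il34, the second ligand of the M-CSF receptor, was at 7.16 ± 0.69 CPM in IKK2-SE cells, 7.17 ± 0.99 CPM in knockdown cells and 22.7 ± 2.02 CPM in scramble cells. It fell by 1.66 ± 0.10 in knockdown cells (edgeR adjusted p = 4.33e-10) and differed by 0.00 ± 0.11 between IKK2-SE and knockdown cells (edgeR adjusted p = 0.998). Il34 thus fell where Csf1 passed no test, and Csf1 rose where Il34 passed none, and the difference between the pair of ligands was not tested. Osmr, the oncostatin M receptor chain, was at 13.0 ± 1.30 CPM in IKK2-SE cells, 6.28 ± 0.82 CPM in knockdown cells and 3.41 ± 0.31 CPM in scramble cells, and rose by 0.88 ± 0.12 in knockdown cells and by a further 1.04 ± 0.10 in IKK2-SE cells (edgeR adjusted p = 5.83e-06 and 4.5e-06). Its ligand Osm had 0, 1 and 1 reads in those groups. Ebi3, a subunit of interleukin-27 and interleukin-35, rose by 1.52 ± 0.23 in IKK2-SE against knockdown cells (edgeR adjusted p = 0.000378), and Ctf1, cardiotrophin-1, was at 5.70 ± 0.99, 5.39 ± 0.18 and 6.08 ± 0.45 CPM in IKK2-SE, knockdown and scramble cells.

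Downstream of the receptors, 13 signal transducers and feedback genes were tested. In knockdown against scramble cells Socs1, Socs2, Socs3 and Ptpn11 fell and Pias3 and Stat5b rose, where 57.5% of all tested genes changed. Cish, which reached the test only through its scramble reads, is left out of these calls. With IKK2-SE over knockdown 4 rose, among them the kinases Jak2 and Tyk2, and none fell, beside 5.61% of all tested genes higher. Stat3, the main effector of gp130, rose by 0.32 ± 0.04 in IKK2-SE against knockdown cells (edgeR adjusted p = 0.0001), whereas Socs3, its feedback inhibitor, was at 36.7 ± 2.37 CPM in IKK2-SE cells, 36.8 ± 1.78 CPM in knockdown cells and 48.5 ± 2.06 CPM in scramble cells. Ptpn11, a phosphatase that binds gp130, fell by 0.76 ± 0.04 in knockdown cells and Pias3, an inhibitor of STAT3, rose by 0.76 ± 0.04, both against scramble (edgeR adjusted p = 2.01e-11 and 2.88e-10). Socs2 fell by 1.34 ± 0.12 in knockdown cells (edgeR adjusted p = 1.09e-07). Cish, a feedback gene induced by STAT5, had 0 reads in IKK2-SE and 1 read in knockdown libraries, against 1.08 ± 0.17 CPM in scramble cells, which alone took it past the filter, so no p is given.

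Of 17 transcription factors known to bind cytokine promoters, 11 fell and 3 rose in knockdown against scramble cells, with a median of -0.23, where 29.9% of all tested genes fell and 27.7% rose. In the comparison of IKK2-SE with knockdown cells 8 rose and 4 fell, with a median of 0.23, where 5.61% rose and 4.82% fell. Against scramble cells 4 were higher and 9 lower in IKK2-SE cells, with a median of -0.21, where 27% of all tested genes rose and 28.7% fell. Cebpd, a C/EBP factor of the acute-phase response, was at 39.8 ± 3.69 CPM in IKK2-SE cells, 9.79 ± 1.25 CPM in knockdown cells and 7.50 ± 0.32 CPM in scramble cells, a rise of 2.03 ± 0.09 over knockdown cells (edgeR adjusted p = 1.56e-10). Nfkbiz, an NF-kB cofactor needed for Il6 induction in macrophages, rose by 1.46 ± 0.06 over knockdown cells (edgeR adjusted p = 1.42e-10), to 44.1 ± 1.18 CPM in IKK2-SE cells, against 16.0 ± 0.94 CPM in knockdown cells and 18.2 ± 1.34 CPM in scramble cells. Its fall with knockdown, 0.19 ± 0.06 (edgeR adjusted p = 0.0191), was lost without knockdown replicate 1 (0.0633) or 2 (0.091) or without scramble replicate 1 (0.105) or 2 (0.069). Bcl3, another NF-kB cofactor, was at 3.07 ± 0.17 CPM in IKK2-SE cells, 1.41 ± 0.13 CPM in knockdown cells and 11.4 ± 0.64 CPM in scramble cells. It fell by 3.01 ± 0.11 in knockdown against scramble cells and rose by 1.12 ± 0.11 in IKK2-SE over knockdown cells (edgeR adjusted p = 6.49e-13 and 5.69e-06). Jund, an AP-1 subunit, fell by 0.63 ± 0.05 in knockdown against scramble cells and by 0.36 ± 0.05 in IKK2-SE against knockdown cells (edgeR adjusted p = 1.08e-08 and 0.000112).

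Of 12 regulators of cytokine mRNA decay, 6 fell and 5 rose in knockdown against scramble cells (median -0.15), where 57.5% of all tested genes changed, and 2 rose (Zc3h12a and Zfp36l1) and 1 fell (Zfp36l2) in IKK2-SE against knockdown cells (median 0.04), where 10.4% did. The Zfp36l2 call was lost without IKK2-SE replicate 3 (edgeR adjusted p = 0.061). Zc3h12a, the ribonuclease Regnase-1 that cleaves Il6 mRNA, had the same order of groups as Csf3 and Lif, at 23.6 ± 1.42 CPM in IKK2-SE cells, 10.3 ± 0.24 CPM in knockdown cells and 18.9 ± 0.23 CPM in scramble cells. It fell by 0.88 ± 0.06 in knockdown cells and rose by 1.20 ± 0.06 over them in IKK2-SE cells (edgeR adjusted p = 3.33e-09 and 1.07e-09). Rc3h1 and Rc3h2, the Roquin proteins that destabilise the same class of mRNA, fell by 0.78 ± 0.05 and 0.79 ± 0.04 in knockdown cells, and Zfp36l2, a binder of AU-rich elements, rose by 0.92 ± 0.05 (edgeR adjusted p = 9.38e-10, 7.21e-11 and 4.9e-11).

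**Figure D4:**
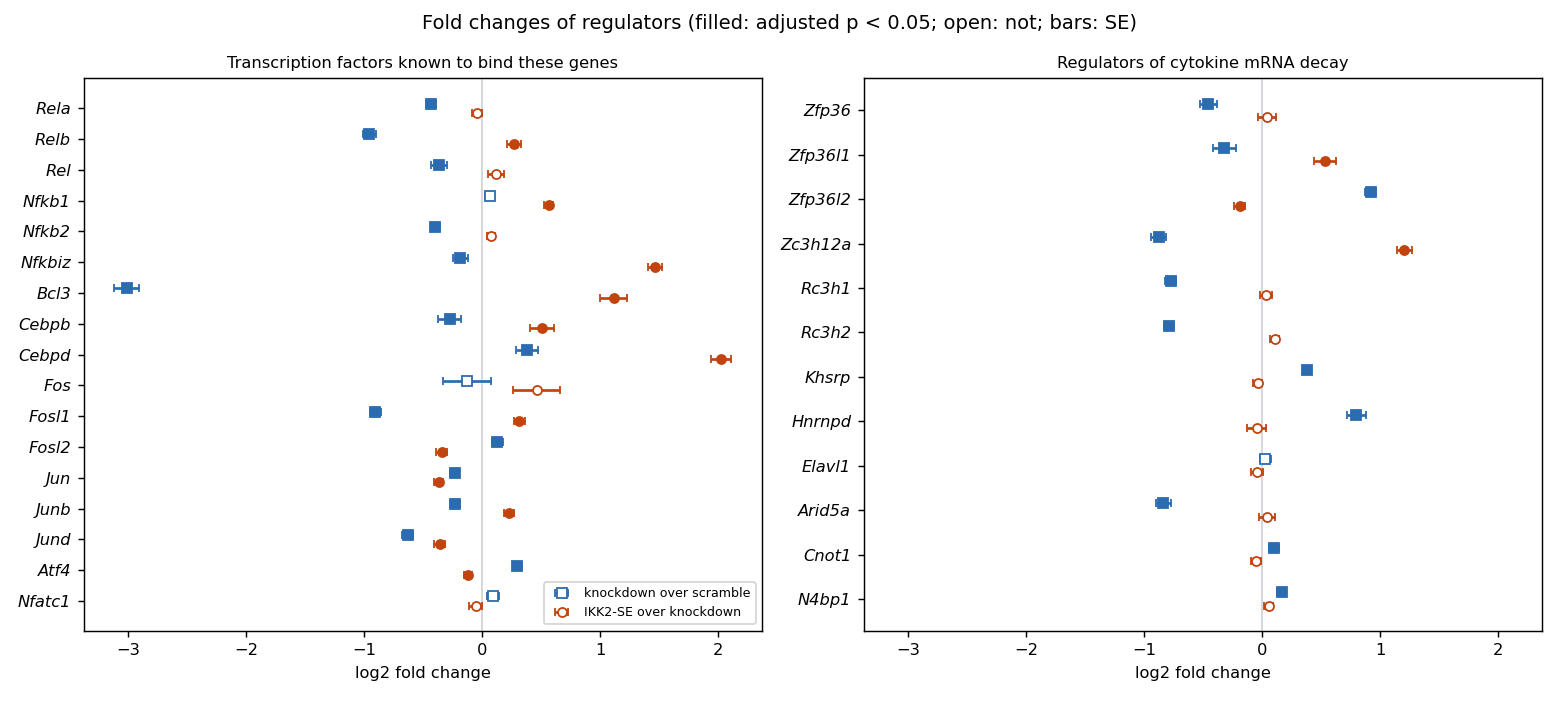
Log2 fold changes of transcription factors, left, and mRNA decay regulators, right, for knockdown over scramble (squares) and IKK2-SE over knockdown (circles), with SE bars, filled where edgeR's adjusted p was below 0.05. Cebpd, Nfkbiz and Zc3h12a lie far to the right in IKK2-SE over knockdown, at 2.03, 1.46 and 1.20, and Bcl3 far to the left in knockdown over scramble, at -3.01.

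The genes whose log2 levels over the 9 libraries were most like each member's were sought among tested genes. All points share the same 3 groups, so these correlations mostly restate the group means. Csf1 was most like Vcam1, Glrx and Nfkb1 (Pearson r = 0.994, 0.990 and 0.989), and Csf2 like Jak2, Fas and Vcam1 (0.982, 0.965 and 0.965). Csf3 was closest to Ldah, Slpi and Zc3h12a (0.977, 0.974 and 0.974), and Lif to the chemokine genes Ccl5 and Cxcl1 and to Zc3h12a (0.991, 0.989 and 0.986). Il11 was closest to Trim23, Gpr137 and Siae (0.982, 0.974 and 0.973) and Clcf1 to Snap47, Slc9a8 and Ddx56 (0.978, 0.977 and 0.977). The likeness is in shape and not in size: Csf3 rose by 6.34 in IKK2-SE against knockdown cells where Ldah rose by 0.15, a call lost with no filter on low counts (0.0575) and without knockdown replicate 2 (0.0509) or 3 (0.066).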

How the data were processed

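RNA of 66cl4 cultures was made into mRNA-seq libraries, per the labels' protocols. The authors deposited raw read counts by gene symbol, as whole numbers that had not been normalized. FastQC, MultiQC and STAR on mm10 are named in the submitters' processing notes without versions, while counter, gene models and strandedness were not given in the sources used. Columns were matched to samples by arm and replicate number.

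Counts were filtered with filterByExpr (minimum count 10, minimum total 15), normalized by TMM, and robust quasi-likelihood models of group alone, fitted to all 9 libraries together (6 residual degrees of freedom), were tested in edgeR 4.0.16 under R 4.3.3. Benjamini-Hochberg adjustment ran across 16766 genes, with calls at 0.05. Each SE was obtained as the log2 change over the root of its F statistic. CPM per kb used GENCODE exon lengths (GRCm38/mm10), and promoters came from RefSeq. Replicates differed by more than sampling noise (chi-square per degree of freedom 3.85 to 20.7). The scripts were tested on simulated data.

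The members and lists were chosen with earlier results of these data known. Named genes were the members, Eya3, Ikbkb, up to 4 genes per list with the smallest F-test p, and, per member, the 3 most correlated genes whose mean log2 CPM reached 1. The scarce receptor chains, Osm, Stat3, Stat5b, Tyk2, Socs1, Socs3, Zfp36l1, Epcam, Cdh1, Krt18, Krt5, Pgr, Ptprc and Tyrobp were named outside this rule, after their values were seen. Of the marker and RNA quality lists only levels and counts of calls are given. A further gene is not reported here. Alternatives were other scalings and filters (CPM of at least 0.5 in 3 libraries), DESeq2 1.42.0, limma 3.58.1 (voom), the replicate number as a block, the 2 compared groups alone, and leaving out each library.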

Additional observations from a re-analysis of the deposited data

How the results depend on the processing

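All calls of Csf1, Csf3, Lif, Il11 and Clcf1 in the 3 comparisons kept their direction and their side of the threshold in every one of the 17 alternatives. Calls of Csf2 are not counted here, since it reached the test only through its IKK2-SE reads, and the CPM filter left it out. Differences that had not passed changed sign in some settings, and none of these passed there. In knockdown against scramble cells Csf1 was -0.0399 with library totals and Csf2 0.16 with limma voom. In IKK2-SE against knockdown cells Il11 was 0.0163 with library totals, 0.0722 with limma voom and 0.0320 with the replicate block, and Il34 was 0.00055 with the CPM filter, 0.0239 with library totals, 0.00044 with only the 2 groups and 0.00049 with the replicate block. Leaving out 1 library at a time, values in knockdown against scramble cells ran from -0.0148 to 0.0381 for Csf1, from -1.09 to 0.79 for Csf2, from -0.0672 to 0.0048 for Glrx and from -0.0665 to 0.0079 for Jak2. In IKK2-SE against knockdown cells they ran from -0.234 to 0.372 for Il11, from -0.101 to 0.0972 for Il34, from -0.0192 to 0.217 for Ctf1, from -0.124 to 0.0767 for Slc9a8 and from -0.0576 to 0.263 for Socs2, and against scramble cells from -0.192 to 0.0434 for Ctf1. The cause was not tested.

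With the replicate number as a block, 2678 genes were called in IKK2-SE against knockdown cells, against 1749, and no call of Csf1, Csf3, Lif, Il11 or Clcf1 changed. Ikbkb passed under the block in IKK2-SE against knockdown cells (adjusted p = 0.0243) and in knockdown against scramble cells (0.0227), and without scramble replicate 3 (0.0489) or 2 (0.0487) in those comparisons. Libraries of equal number correlated in their deviations by -0.0111 to 0.123 and others by -0.0814 to 0.0464, and the highest correlation was with the same number in 12 of 18 checks, where 6 of 18 would come if the number did not matter. That is a hint of shared numbers from the data, not from the design, and the labels name no shared batch. Of the same-number correlations only that of knockdown 1 with IKK2-SE 1 (0.123) was over 0.1, and the next was 0.0619. The numbers were therefore not taken as pairs. Depth limits Il6 and Csf2, where few reads set the values.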
